A study of Mus musculus with 7 samples.

Results

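The microRNAs (miRNAs) of the miR-23a/27a/24-2 and miR-23b/27b/24-1 clusters were followed in CD8+ T cells from mouse spleen. The members are 9 mature arms, named by these hairpins, out of 1978 mature names in the table, and lines with the same name were summed. Of these, 4 arms belong to the a cluster alone, 3 to the b cluster alone, and 2 are listed under both. The cells came from gBT-I mice, which carry a transgenic T cell receptor, so all groups share it. CD8+ cells were sorted into CD44hi CD122hi cells (virtual memory, VM) and CD44lo CD122lo cells (true naive, TN), from neonatal or adult spleens. The groups were adult TN (2 libraries), adult VM (2), neonatal VM (2) and neonatal TN (1). The labels used here give no ages in days, no pooling and no number of animals. The p-values therefore reflect only how far these libraries differ among themselves, and that spread can be technical.

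Each cluster is transcribed as 1 primary RNA, which is cut into 3 hairpins and then into a 5p and a 3p arm per hairpin. The 3p arms of these hairpins are known as the main guide strands, which load into Argonaute and repress mRNAs through their seed, bases 2 to 8. In T cells, miR-24 and miR-27 are known to restrain the T helper 2 program, miR-24 through Il4 and miR-27 through Gata3. MiR-23a is known to repress Blimp-1 and to restrain the cytotoxic program of CD8+ T cells. VM cells carry memory markers without having met foreign antigen.

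The mature sequences show which arms the count table can tell apart. They were taken from RefSeq (build GRCm38.p6), where 8 of the 9 members matched by name, and the seed is in capitals.
mmu-miR-27a-3p: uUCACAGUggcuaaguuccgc
mmu-miR-27b-3p: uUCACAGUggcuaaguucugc
mmu-miR-27a-5p: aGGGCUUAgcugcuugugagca
mmu-miR-27b-5p: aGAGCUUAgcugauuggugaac
mmu-miR-23a-3p: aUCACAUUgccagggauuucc
mmu-miR-24-3p: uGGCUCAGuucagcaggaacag
mmu-miR-24-2-5p: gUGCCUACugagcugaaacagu
mmu-miR-24-1-5p: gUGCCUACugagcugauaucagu
mmu-miR-3074-5p: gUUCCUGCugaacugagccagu

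MiR-27a-3p and miR-27b-3p share their seed and differ at 1 base, C19U (position counted from 1 at the 5′ end, miR-27a-3p first). Their 5p arms differ at 8 of 22 positions, the first of them G3A, inside the seed. MiR-24-2-5p and miR-24-1-5p, the latter not a member and shown as the b counterpart, share a seed and differ first at A17U. MiR-24-3p is the same sequence from Mir24-2 and Mir24-1. MiR-3074-5p lies on the opposite strand of both miR-24 hairpins, and its reverse complement shares 20 bases in a row with miR-24-3p. The counting is not stated to use strand, so reads of miR-3074-5p and miR-24-3p cannot be told apart with certainty.

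On GRCm38 the a cluster spans 404 bases of chromosome 8 (84208518 to 84208921), and the b cluster spans 792 bases of chromosome 13 (63300484 to 63301275), both on the plus strand. The a hairpins are Mir23a (84208518 to 84208592), Mir27a (84208672 to 84208758) and Mir24-2 (84208815 to 84208921), and the b hairpins are Mir23b (63300484 to 63300557), Mir27b (63300712 to 63300784) and Mir24-1 (63301208 to 63301275). In GENCODE M21, Mir23a and Mir27a overlap no other gene, and Mir24-2 overlaps an exon of the lincRNA Gm26532 on the same strand. The b cluster lies within the protein-coding gene 2010111I01Rik (Aopep in RefSeq) on its strand and in an intron of Fancc on the opposite strand. Mir23b is intronic in all 9 overlapping transcripts of 2010111I01Rik, Mir27b overlaps an exon in 1 of 9, and Mir24-1 overlaps an exon in 4 of 11.

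The deposited values show how shared reads were divided. The 2 lines of miR-24-3p, on Mir24-1 and Mir24-2, were equal in 7 of 7 libraries, so the table does not say how much came from each cluster. MiR-27a-3p had a value ending in 0.5 in 4 libraries, and miR-27b-3p had one in the same 4. MiR-23a-3p and miR-23b-3p did so together in 3 libraries. No value of miR-27a-5p or miR-27b-5p had a fraction. How many reads were divided between the a and b 3p arms was not tested.

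Library totals ran from 1577031 to 3278451 counts. CPM, used below, scales an arm's count to the library total adjusted by its TMM factor. Adapter ligation favours some small RNA ends, so levels of different arms are read counts rather than numbers of molecules. All 5 lymphocyte marker miRNAs were present in every library. Their levels did not share 1 order: miR-150-5p was highest in adult TN (365884 and 435446 CPM), miR-142a-5p in adult VM (86524 and 143079 CPM) and miR-181a-5p in neonatal TN (171918 CPM). The 16 marker miRNAs of erythroid, myeloid, endothelial, stromal and liver cells summed to 207 to 534 CPM per library, with the liver marker miR-122-5p at 0 in 6 of 7 libraries. In bulk samples, fewer cells of a type and less RNA per cell cannot be told apart.

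The 9 arms together made up 2.88 to 4.92% of all counts. MiR-27b-3p alone ranked between 5th and 9th of all miRNAs in each library, and the b arms took 2.52 to 4.57% of counts against 0.293 to 0.461% for the a arms. The 5p arms of miR-27 were low, with 25 to 133 counts for miR-27a-5p and 111 to 358 for miR-27b-5p. MiR-3074-5p had 18 to 85 counts per library, so its values are the least precise.

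**Figure D1:**
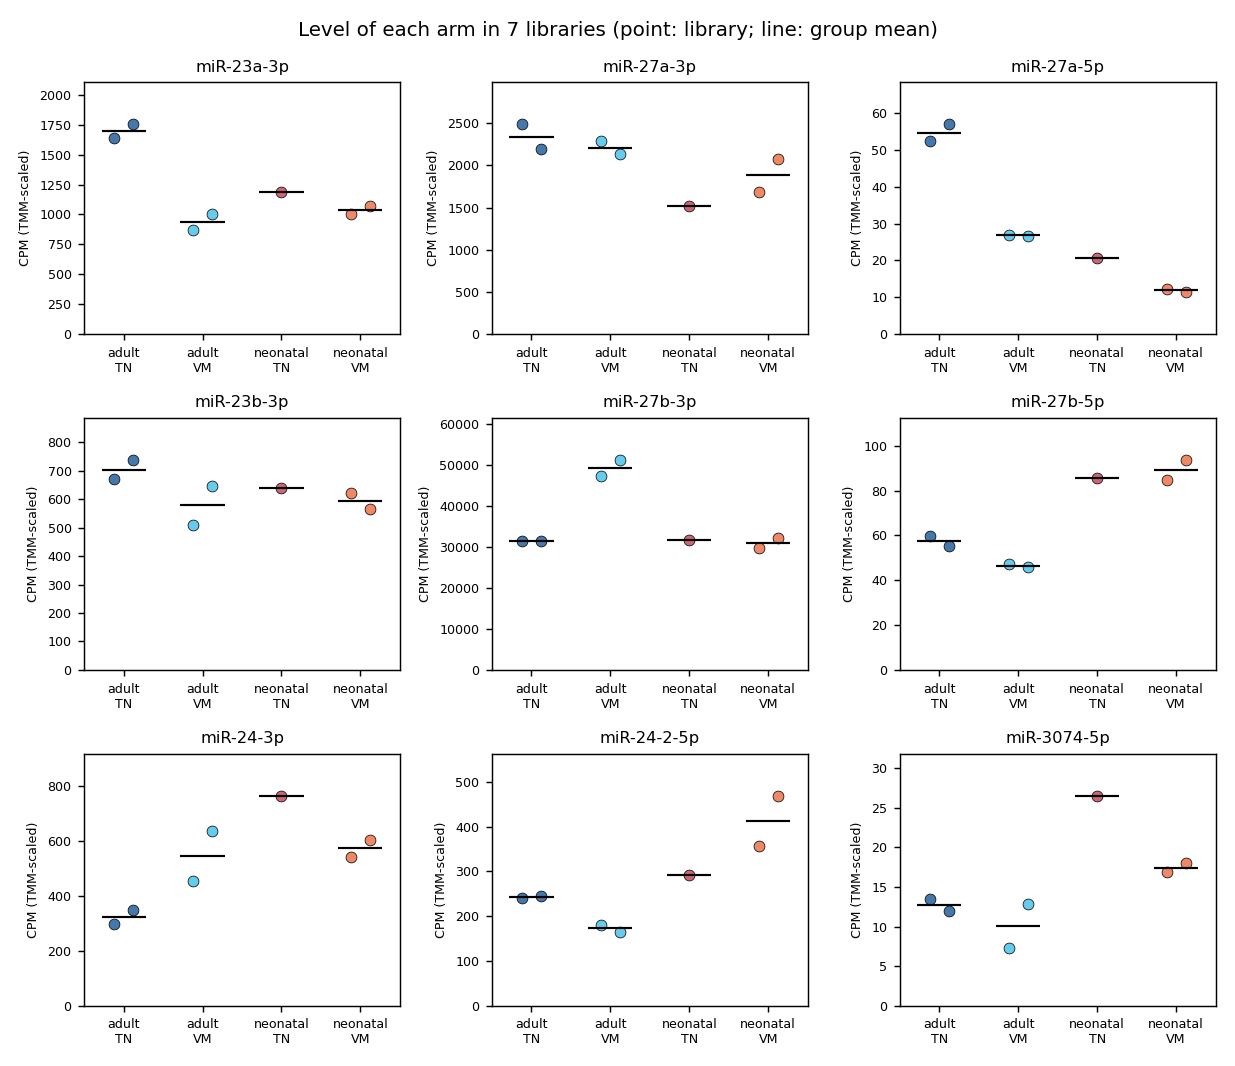
Level of each arm in CPM (TMM-scaled, linear axis from 0), with 1 point per library and a line at the group mean. MiR-27a-5p falls from 54.7 CPM in adult TN to 11.9 in neonatal VM, whereas miR-27b-5p sits at 84.6 to 93.6 CPM in the 3 neonatal libraries and at 46.0 to 59.9 in the 4 adult ones.

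With neonatal age over both subsets, the 5p arm of miR-27a fell and the 5p arms of miR-27b and miR-24-2 rose, as did miR-3074-5p. None of the 3p guide arms passed that test with all libraries, TMM factors and the 10 CPM filter, but miR-24-3p and miR-27b-3p did under some alternatives, given with each arm. In all, 4 of 9 members passed (3 higher, 1 lower), near the 53.8% of all 288 tested miRNAs that passed (edgeR's quasi-likelihood F test, with the threshold at a Benjamini-Hochberg p of 0.05). The median log2 fold change of the members was -0.04, and that of all tested miRNAs was -0.05. Scaled by library totals alone, the log2 changes of all miRNAs shifted up by a median of 0.45, and 4 members were higher and 1 lower, the added one being miR-24-3p. Of the 172 calls among all miRNAs in that setting, 119 were higher. The rises of miR-27b-5p and miR-24-2-5p were then 1.24 and 1.33 (log2 change, edgeR adjusted p = 0.0019 and 0.00329), and that of miR-27b-5p in VM cells was 1.44 (edgeR adjusted p = 8.44e-04).

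MiR-27a-5p, the passenger arm of the miR-27a hairpin, reached 52.4 and 57.0 CPM in the adult TN libraries, against 27 and 26.6 in adult VM. It was at 20.5 CPM in neonatal TN and 12.4 and 11.5 in neonatal VM. All adult libraries lay above all neonatal ones, and within each age TN lay above VM. It was 2.41-fold lower in neonatal cells (log2 change -1.27, SE 0.22, edgeR adjusted p = 0.00147) and passed under all 13 alternatives that kept it in the test, with a smaller fall of -0.82 under library totals (edgeR adjusted p = 0.0117). It fell in TN cells (-1.41, SE 0.38, edgeR adjusted p = 0.00973) and in VM cells (-1.17, SE 0.32, edgeR adjusted p = 0.00803), although the fall in VM cells did not pass under library totals (-0.66, edgeR adjusted p = 0.0839) or without neonatal VM replicate 2 (-1.11, edgeR adjusted p = 0.0812).

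MiR-27b-5p, the passenger arm of the b hairpin, moved the other way. It was at 59.9 and 55.2 CPM in adult TN cells, 47.1 and 46.0 in adult VM, 85.6 in neonatal TN and 84.6 and 93.6 in neonatal VM. Under library totals, miR-27b-5p passed as higher with neonatal age in TN and in VM cells. The neonatal libraries did not overlap the adult ones, and the rise was 1.73-fold (log2 change 0.79, SE 0.21, edgeR adjusted p = 0.0115). The call was lost without adult VM replicate 1 (0.74, edgeR adjusted p = 0.0531), without neonatal VM replicate 2 (0.68, edgeR adjusted p = 0.0701) and with no filter on low counts (0.65, edgeR adjusted p = 0.0673). In VM cells it rose 1.91-fold (log2 change 0.94, SE 0.25, edgeR adjusted p = 0.00824, or 0.0714 without neonatal VM replicate 2), and in TN cells the log2 difference of 0.57 did not pass (edgeR adjusted p = 0.14).

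MiR-27b-3p, the abundant guide of the b cluster, stood out in adult VM cells. It was at 47360.3 and 51110.0 CPM there, against 31424 and 31512 in adult TN, 31764 in neonatal TN and 29811 and 32020.0 in neonatal VM. The neonatal VM values enclosed those of both TN groups, and both adult VM libraries lay above all others. In adult cells it was 1.56-fold higher in VM than in TN (log2 change 0.65, SE 0.16, edgeR adjusted p = 0.00856). That call needed both adult TN libraries (edgeR adjusted p = 0.0983 and 0.104 without replicate 1 or 2). In VM cells it was 1.59-fold lower in neonates (-0.67, SE 0.16, edgeR adjusted p = 0.00379), but not under library totals (-0.16, edgeR adjusted p = 0.371) or without either neonatal VM library (-0.60 and -0.72, edgeR adjusted p = 0.105 and 0.0581). Over both subsets the age difference of -0.39 did not pass (edgeR adjusted p = 0.0969) and was 0.056 under library totals. It passed with no filter (-0.54, edgeR adjusted p = 0.0218), with the largest line per name (-0.46, edgeR adjusted p = 0.0411) and without the neonatal TN library (-0.65, edgeR adjusted p = 0.00495).

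Some marker lists of other cells were, like miR-27b-3p, highest in both adult VM libraries. The erythroid list summed to 249.7 and 297 CPM in adult VM, 123 and 164 in adult TN, 92.0 and 80.0 in neonatal VM and 230.4 in neonatal TN, with miR-144-3p at 0 in 4 of 7 libraries. The myeloid list summed to 6.44 and 15.9 CPM in adult VM, at most 2.16 in TN cells and at most 4.18 in neonatal VM, with miR-223-5p at 0 in 3 of 7 libraries. The endothelial and progenitor list, at 158 and 192 CPM in adult VM, reached at most 139.5 elsewhere. Most of its adult VM sum was miR-10a-5p (136 and 166 CPM). The other members of that list were not highest there. For miR-126a-3p, adult VM had 6.85 and 3.81 CPM and neonatal VM 15.8 and 15.2. For miR-126a-5p, adult VM had 14.9 and 22.5 CPM, neonatal VM 38.6 and 60.7 and neonatal TN 49.8. The part of these lists in the miR-27b-3p level was not tested.

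MiR-27a-3p, with the same seed, did not follow miR-27b-3p into adult VM cells. It was at 2487 and 2193 CPM in adult TN cells, 2287 and 2130.2 in adult VM, 1515 in neonatal TN and 1689 and 2073 in neonatal VM. The adult TN and adult VM libraries overlapped. In TN cells it was lower in the neonatal library (-0.63, SE 0.24, edgeR adjusted p = 0.0494), a call lost under library totals (-0.28, edgeR adjusted p = 0.369), with the 100 CPM filter, with the replicate number in the model and without any 1 of both adult TN and both neonatal VM libraries. Over both subsets the age difference was -0.39 and did not pass (edgeR adjusted p = 0.108), and it was 0.060 under library totals.

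MiR-24-2-5p, from the third hairpin of the a cluster, rose with neonatal age. It was at 241 and 245 CPM in adult TN cells, 181 and 165 in adult VM, 292 in neonatal TN and 357 and 468 in neonatal VM. All neonatal libraries lay above all adult ones. It rose 1.84-fold over both subsets (log2 change 0.88, SE 0.24, edgeR adjusted p = 0.0154), a call lost without adult VM replicate 1 (0.77, edgeR adjusted p = 0.072) or neonatal VM replicate 2 (0.64, edgeR adjusted p = 0.0799). In VM cells it rose 2.39-fold (1.26, SE 0.21, edgeR adjusted p = 3.18e-04), which passed under all 14 alternatives, and in TN cells the difference of 0.27 did not pass (edgeR adjusted p = 0.403). In TN cells the rise did pass under library totals. The difference between the age effects in VM and TN cells was 0.99 (SE 0.33) and did not pass (edgeR adjusted p = 0.0848). It passed with DESeq2 (1.13, adjusted p = 0.0150), with RLE factors (1.13, edgeR adjusted p = 0.0481), with the 100 CPM filter (1.14, edgeR adjusted p = 0.0351) and without either adult VM library.

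MiR-24-1-5p, its b counterpart, had 0 to 7 counts per library against 446 to 1791 for miR-24-2-5p. Its share of both arms was at most 1.55% (adult TN replicate 1, 95% Wilson interval 0.750 to 3.15%), and in neonatal VM replicate 1 its count of 0 allows up to 0.416%. So nearly all countable 5p reads of miR-24 carried the a cluster sequence, in contrast to the miR-27 arms. These intervals and limits describe counting error alone, because PCR copies of 1 molecule were not told apart.

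MiR-24-3p, the guide shared by both clusters, was lowest in adult TN cells, at 296 and 350.3 CPM. It was at 455 and 638 in adult VM, 541 and 604 in neonatal VM and 763 in the neonatal TN library. In CPM the adult VM replicates enclosed both neonatal VM values, so those groups are not ordered on that scale. As shares of all counts they did not overlap, at 0.0416 and 0.0562% in adult VM and 0.0693 and 0.0768% in neonatal VM. In VM cells the age difference of 0.07 did not pass (edgeR adjusted p = 0.795), but under library totals miR-24-3p passed as higher in neonatal VM. It was 2.36-fold higher in neonatal than in adult TN cells (log2 change 1.24, SE 0.26, edgeR adjusted p = 0.0020, or 0.0556 without adult TN replicate 1). In adult cells it was 1.69-fold higher in VM than in TN (0.76, SE 0.22, edgeR adjusted p = 0.0174). That call was lost without adult VM replicate 2 (0.38, edgeR adjusted p = 0.0609), adult TN replicate 1 (0.52, edgeR adjusted p = 0.211) or adult TN replicate 2 (0.84, edgeR adjusted p = 0.118). Over both subsets the age difference of 0.56 did not pass (edgeR adjusted p = 0.108). It passed under library totals (1.01, edgeR adjusted p = 0.00708), with the 100 CPM filter (0.71, edgeR adjusted p = 0.0421) and without adult VM replicate 2 (0.79, edgeR adjusted p = 0.00808), and was 0.09 without the neonatal TN library (edgeR adjusted p = 0.73).

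The difference of the age effect on miR-24-3p between VM and TN cells was -1.17 (SE 0.34) and did not pass (edgeR adjusted p = 0.0534). It passed with DESeq2, with no filter, with the replicate block and without either adult VM library. The stromal and muscle marker miR-143-3p was at 4.32 and 8.99 CPM in adult TN cells, 16.5 and 25.9 in adult VM, 31.7 and 43.9 in neonatal VM and 67.3 in neonatal TN, the same order of groups as the mean level of miR-24-3p. It made up most of the sum of its list of 7, which ran from 5.94 to 70.7 CPM and of which 1 was abundant enough to test. MiR-214-3p and miR-1a-3p were at 0 in all 7 libraries and miR-145a-5p in 6 of them. The sum of the endothelial and progenitor list did not follow that order. It was 75.1 to 131 CPM in adult TN and 158 to 192 in adult VM. Neonatal VM had 105 to 139.5 and neonatal TN 86.6. Its members differed. In adult TN, miR-126a-5p was at 3.24 and 5.57 CPM, against 14.9 and 22.5 in adult VM. Neonatal VM had 38.6 and 60.7 CPM of it and neonatal TN 49.8. In contrast, miR-126a-3p was highest in neonatal VM (15.8 and 15.2 CPM) and miR-10a-5p in adult VM (136 and 166 CPM). The part of these markers in the miR-24-3p level was not tested.

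In CPM, miR-23a-3p was set apart by adult TN cells. It was at 1639 and 1753 CPM there, 867 and 1001 in adult VM, 1189 in neonatal TN and 1001 and 1071 in neonatal VM. Both adult TN libraries lay above the other 5. As shares of all counts, adult VM stood apart instead, at 0.079 and 0.088%. Adult TN had 0.148 and 0.137%, neonatal VM 0.128 and 0.136% and neonatal TN 0.128%. Under library totals, miR-23a-3p passed as higher in neonatal than in adult VM cells. In adult cells it was 1.82-fold lower in VM than in TN (log2 change -0.86, SE 0.19, edgeR adjusted p = 0.00405, or 0.0658 without adult TN replicate 2). Over both ages the subset difference of -0.60 did not pass (edgeR adjusted p = 0.0538). With all libraries kept, it passed with DESeq2, the 100 CPM filter and the largest line per name. The age difference of -0.51 in TN cells did not pass either (edgeR adjusted p = 0.0859). With all libraries kept, that one passed with DESeq2, no filter and the largest line per name. The difference between the age effects was 0.66 (edgeR adjusted p = 0.196). With all libraries kept, it passed only with DESeq2 (0.80, adjusted p = 0.0418). Without adult VM replicate 1 or 2, which leaves a lone library in that group, it was 0.59 and 0.86.

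MiR-23b-3p varied least of the members. It was at 671 and 737 CPM in adult TN cells, 510.3 and 648 in adult VM, 638 in neonatal TN and 621 and 564 in neonatal VM. Adult VM overlapped both neonatal groups. With all libraries, TMM factors and the 10 CPM filter, miR-23b-3p passed none of the 7 tests. Under library totals it passed as higher in neonatal than in adult VM cells. The 5p arms of these hairpins were nearly uncounted, with 0 to 5 counts for miR-23a-5p and 0 in all 7 libraries for miR-23b-5p, which allows up to 0.915 to 1.90 CPM of the library total.

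MiR-3074-5p was at 13.5 and 12 CPM in adult TN cells, 7.25 and 12.8 in adult VM, 26.5 in neonatal TN and 16.8 and 18.0 in neonatal VM. The neonatal libraries lay above the adult ones, and the rise was 1.87-fold (log2 change 0.90, SE 0.28, edgeR adjusted p = 0.0233). The call was lost when any 1 library other than adult VM replicate 2 was left out (0.74 to 0.91, edgeR adjusted p = 0.0546 to 0.101) and with no filter on low counts (0.75, edgeR adjusted p = 0.101). Relative to miR-24-3p it amounted to 1.59 and 2.01% in adult VM, 4.56 and 3.42% in adult TN, 3.11 and 2.99% in neonatal VM and 3.47% in neonatal TN. Of the 3p arms of its hairpins, miR-3074-1-3p, at the b cluster, had 3 to 28 counts per library. The other, miR-3074-2-3p at the a cluster, had 0 to 1. How much of miR-3074-5p came from each cluster was not tested.

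The ratio of an a arm to its b partner within a library does not depend on the scaling between libraries. For the 3p guides, miR-23a-3p exceeded miR-23b-3p in every library, whereas miR-27a-3p was a small fraction of miR-27b-3p. MiR-23a-3p was 2.44 and 2.38 times miR-23b-3p in adult TN, 1.70 and 1.55 times in adult VM, 1.86 times in neonatal TN and 1.61 and 1.90 times in neonatal VM. Adult TN lay above the other groups, which overlapped. By subset the mean log2 ratio was 0.75 in VM and 1.15 in TN, a difference of -0.39 (exact two-sided permutation test, p = 0.114, adjusted p = 0.457 over 4 tests), and by age the difference was -0.15 (exact p = 0.514, adjusted p = 0.686). With 3 libraries against 4 the smallest p is 0.0571, so this design cannot reach 0.05.

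MiR-27a-3p was 7.91 and 6.96% of miR-27b-3p in adult TN, 4.83 and 4.17% in adult VM, 4.77% in neonatal TN and 5.67 and 6.47% in neonatal VM. Adult TN was highest, and the order of subsets was opposite at the other age, with VM above TN in neonates. Neither the age difference in the log2 ratio (-0.04, exact p = 0.857, adjusted p = 0.857) nor the subset difference (-0.30, exact p = 0.286, adjusted p = 0.571) passed the permutation test.

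The 5p arms of miR-27, which differ enough to be counted apart, gave another picture. MiR-27a-5p was 87.4 and 103% of miR-27b-5p in adult TN and 57.3 and 57.9% in adult VM. It was 24% in neonatal TN and 14.6 and 12.3% in neonatal VM. In the neonatal TN library miR-27a-5p made up 19.4% of both arms (95% Wilson interval 15.5 to 23.9%). The mean log2 ratio was -0.44 ± 0.43 (SD, n = 4) in adult and -2.62 ± 0.50 (SD, n = 3) in neonatal libraries, which did not overlap. This ratio was picked after its values were seen and is a description without a test.

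**Figure D2:**
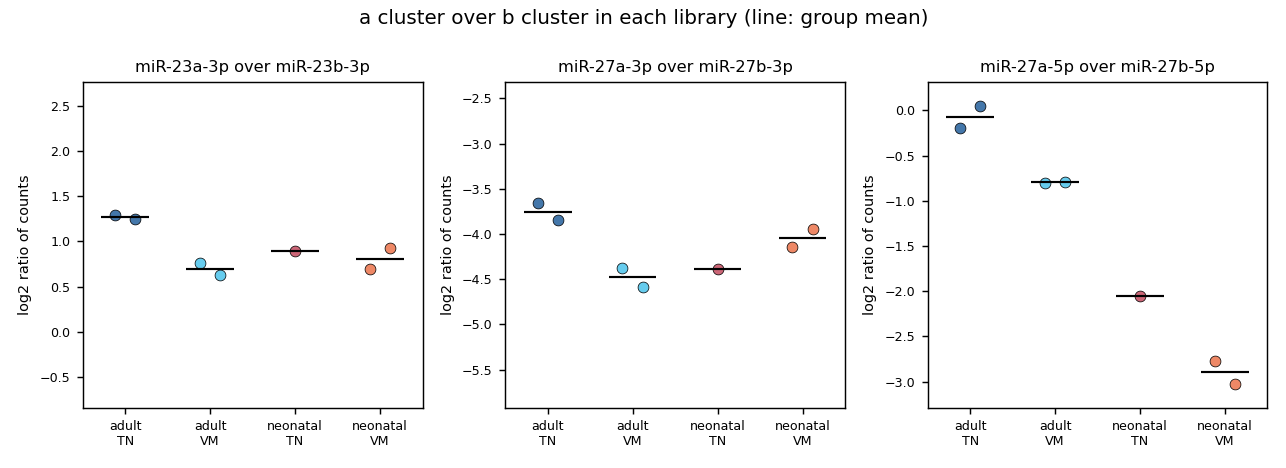
Log2 ratio of counts of the a arm over the b arm, with 1 point per library, a line at the group mean and the same axis span in each panel. The 3p ratios stay within 1 unit across groups, while the 5p ratio of miR-27 drops from near 0 in adult TN to -2.77 and -3.02 in neonatal VM.

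Arms of 1 hairpin, and of 1 cluster, did not keep a fixed proportion. MiR-27b-5p was 0.191 and 0.175% of miR-27b-3p in adult TN, 0.0995 and 0.0900% in adult VM, 0.270% in neonatal TN and 0.284 and 0.292% in neonatal VM. The neonatal libraries were highest and adult VM lowest. MiR-27a-5p was 2.11 and 2.60% of miR-27a-3p in adult TN, 1.18 and 1.25% in adult VM, 1.36% in neonatal TN and 0.732 and 0.555% in neonatal VM. Here neonatal VM was lowest, so the passenger share of the 2 hairpins ran in different orders over the groups. Within the a cluster, miR-24-2-5p was 7.93 and 7.73% of miR-27a-3p in adult VM, 9.68 and 11.2% in adult TN, 19.3% in neonatal TN and 21.1 and 22.6% in neonatal VM, with all neonatal libraries above all adult ones. These ratios too were picked after the values were seen.

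**Figure D3:**
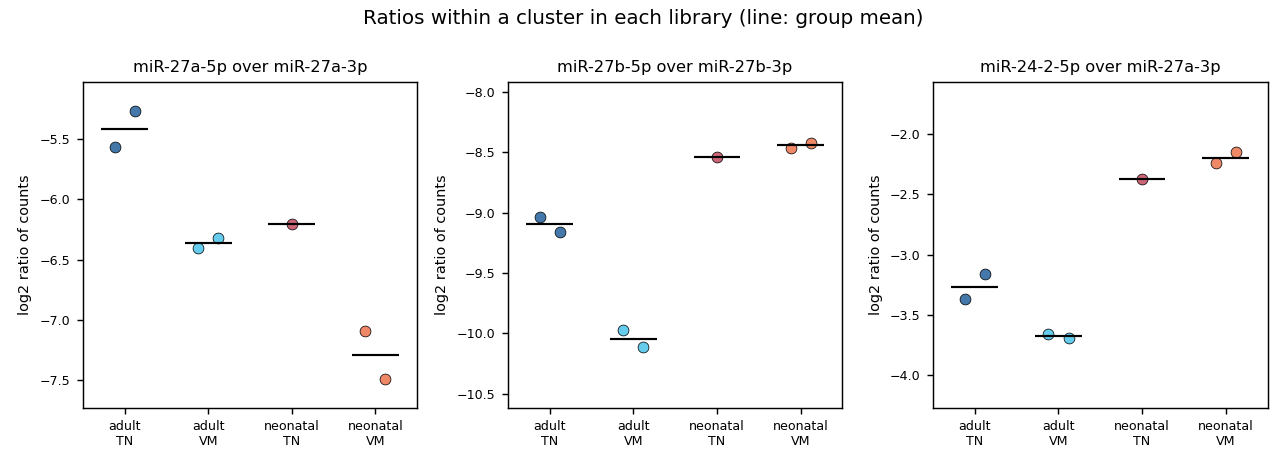
Log2 ratio of counts within a hairpin or cluster, with 1 point per library, a line at the group mean and the same axis span in each panel. From adult to neonatal libraries of the same subset, the 5p over 3p ratio falls for miR-27a and rises for miR-27b, and miR-24-2-5p rises against miR-27a-3p.

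With subset over both ages, 1 of 9 members passed, against 24.7% of all tested miRNAs. This was miR-27a-5p, 1.91-fold lower in VM cells (log2 change -0.94, SE 0.21, edgeR adjusted p = 0.0192). It did not pass without adult VM replicate 1, adult TN replicate 2 or neonatal VM replicate 2 (-0.94, -0.87 and -0.94). Between adult VM and adult TN, 4 of 9 members passed, near the 38.9% of all miRNAs, with miR-27b-3p and miR-24-3p higher and miR-23a-3p and miR-27a-5p (-1.03, SE 0.29, edgeR adjusted p = 0.0171) lower in VM. Without adult TN replicate 1 or 2, which leaves a lone library in that group, fewer members passed, as did fewer of all tested miRNAs. Between neonatal VM and neonatal TN, 1 TN library was set against 2. With all libraries kept, no member passed with edgeR or with DESeq2. In edgeR 0 had an unadjusted p under 0.05, and 9.72% of all miRNAs passed.

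With age in TN cells, 3 of 9 members passed (1 higher, 2 lower), against 47.9% of all tested miRNAs. Under library totals 4 were higher (miR-24-2-5p, miR-24-3p, miR-27b-5p and miR-3074-5p) and 1 lower. Among all miRNAs, 106 of the 144 calls in that setting were higher. With TMM factors, miR-3074-5p had a log2 difference of 1.06 in TN cells that did not pass (edgeR adjusted p = 0.0693). With age in VM cells, 4 of 9 passed (2 higher, 2 lower), against 53.8%. Under library totals 6 were higher and none lower, with miR-27a-5p and miR-27b-3p no longer past the test. Of the 166 calls among all miRNAs in that setting, 117 were higher. The age comparisons in TN and VM share no library. For the difference between them, no member passed in edgeR with all libraries, TMM factors and the 10 CPM filter. In that fit 4 had an unadjusted p under 0.05 and 7.99% of all miRNAs passed, while DESeq2 called 3 members.

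Without adult VM replicate 1 or 2, which leaves a lone library in that group, more members passed the test of that difference. So did more of all tested miRNAs. The difference was then 1.09 and 1.02 for miR-24-2-5p and -1.36 and -0.82 for miR-24-3p. For miR-27b-3p it was -0.71 and -0.53, against -0.68 (SE 0.25, edgeR adjusted p = 0.111) with all libraries.

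**Figure D4:**
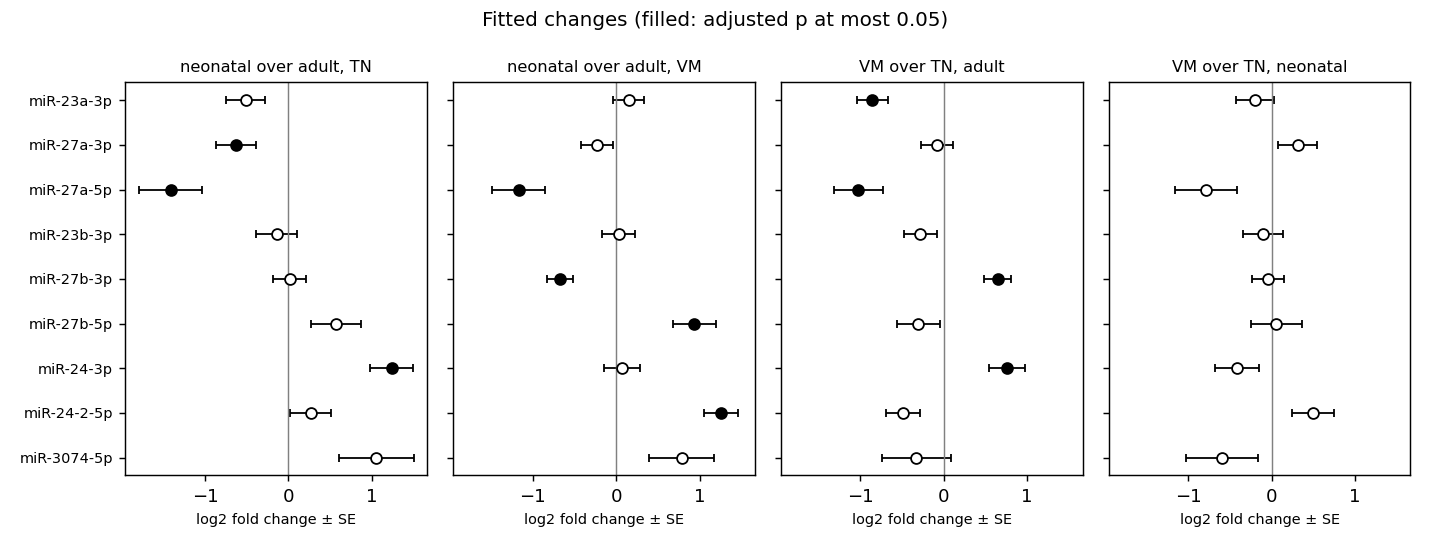
Fitted log2 fold change of each arm (point) with its SE (bar) in the 4 pairwise comparisons, filled where the edgeR adjusted p was at most 0.05. MiR-27a-5p is on the negative side in all 4 panels, and no point is filled for VM over TN in neonatal cells.

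A list of 18 miRNAs with a known part in T cell activation or quiescence was counted beside the clusters. With age over both subsets 4 were higher, 7 lower and 7 did not pass, against 53.8% passing among all tested miRNAs, and the list's median log2 change was -0.28 against -0.05. With subset over both ages 6 were higher, 3 lower and 9 did not pass, where 24.7% of all tested miRNAs passed, with a median of 0.29 against 0.01 for all tested miRNAs.

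The miRNAs outside the clusters whose centred log2 CPM lay closest over the 7 libraries were found for each 3p arm among 279 tested miRNAs, as a description. For miR-27b-3p these were miR-141-3p, miR-26b-5p and miR-3068-3p, at root mean square differences of 0.08, 0.09 and 0.16 on the log2 scale, against a median of 0.68 over all miRNAs. For miR-24-3p they were miR-192-5p (0.13), let-7j (0.18) and let-7i-5p (0.23), and for miR-23a-3p miR-328-3p (0.18), miR-342-3p (0.19) and miR-1198-5p (0.20). The nearest to miR-27a-3p was miR-425-5p (0.20), followed by miR-30d-5p and miR-532-5p (0.22 each), and to miR-23b-3p miR-194-5p (0.12), miR-500-3p and miR-15b-5p (0.15 each). Among the members, the closest pair was miR-24-2-5p and miR-27b-5p (0.18), from different clusters, and the farthest miR-24-3p and miR-27a-5p (1.19).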

How the data were processed

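Small RNA libraries were made with the TruSeq small RNA kit from sorted CD8+ cells, per the labels' protocols. The submitters' processing notes name the build mm10. The authors deposited estimated counts for each pair of mature arm and precursor, some of them fractional. The aligner, the counter and the handling of shared reads are not given in the sources used here. The 2128 lines were summed to 1978 mature names and rounded. Totals were 1577031 to 3278451 counts per library.

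A filter of 10 CPM reached in 2 or more libraries left 288 miRNAs, which were tested in edgeR 4.0.16 (R 4.3.3) with TMM factors and the robust quasi-likelihood test, adjusted by Benjamini-Hochberg over all 288 at 0.05. Age and subset averages used an additive model (residual df 4), and a cell means model (residual df 3) gave the other 5 comparisons, so the lone neonatal TN library was assumed to vary like the others. All 9 members were tested. Ratios used exact permutation tests (scipy 1.17.1). Alternatives were RLE factors, library totals, no filter, 100 CPM, DESeq2 1.42.0, the replicate block, the largest line per name and each library left out. The fit was tested on simulated data. The members and lists were chosen with earlier results of these data known. Named were all members, other arms of their hairpins and the 3 nearest patterns per 3p arm. Sequences were RefSeq's on GRCm38.p6, and reads were not analysed here.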

Additional observations from a re-analysis of the deposited data

How the results depend on the processing

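Over the 63 pairs of a member and a comparison, 841 values were computed under the alternatives. Of the 16 pairs that passed, 0 changed sign, and 178 of their 215 values still passed. Of the 47 that did not pass, 46 of 626 values changed sign, at most 0.42 in size, and 52 passed. Among those named, miR-27a-3p and miR-27b-3p with age over both subsets changed sign under library totals (0.060 and 0.056). Moves of at most 1.5-fold in the number of members called are left out. They occurred for age over both subsets, age in TN, age in VM and subset in adult cells. With all libraries kept, the number of members called moved by more than 1.5-fold, or from 0, as follows. With subset over both ages it was 1, and 2 under library totals, DESeq2 and the largest line per name. With age in TN it was 3, and 5 under library totals and 1 with the 100 CPM filter, which drops 2 low arms. For the difference of age effects it was 0, and 1 with RLE factors, no filter, the 100 CPM filter and the replicate block, and 3 with DESeq2. Leaving out each library gave 1 to 5 members for age, 0 to 4 for subset, 1 to 5 for age in TN, 1 to 6 for age in VM, 0 to 5 for subset in adult cells, 0 to 2 in neonatal cells and 0 to 4 for the difference. Differences in log2 ratio ranged, leaving out each library, from -0.26 to -0.04 for miR-23a-3p over miR-23b-3p by age, from -0.52 to -0.32 for miR-23a-3p over miR-23b-3p by subset, from -0.20 to 0.11 for miR-27a-3p over miR-27b-3p by age and from -0.51 to -0.14 for miR-27a-3p over miR-27b-3p by subset. The cause of these changes was not tested.

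Over all miRNAs, the 100 CPM filter, which tests fewer miRNAs, gave 79 calls against 155 for age, 93 against 155 in VM, 69 against 138 in TN and 41 against 71 for subset. No filter gave 53 against 28 for subset in neonatal cells and 43 against 23 for the difference, and DESeq2 38 against 23. The replicate block gave 42 against 71 for subset. Leaving out each library gave 115 to 158 calls for age, 18 to 111 for subset, 83 to 179 for age in TN, 106 to 171 for age in VM, 23 to 142 for subset in adult cells, 16 to 77 in neonatal cells and 6 to 86 for the difference. Deviations of same-numbered libraries correlated at 0.02, 0.14 and -0.16 in the 3 pairs of groups. With 2 libraries in a group, this cannot show whether the numbers pair the samples. Without the neonatal TN library, the age in TN, subset in neonatal cells and difference comparisons have no value. Low counts limit miR-27a-5p and miR-3074-5p most.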
